A study of Mus musculus with 25 samples.

Results

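Internal introns of over 1000 and up to 3000 bases are the mid-sized introns of mouse genes that are neither the first nor the last intron of their gene. They were chosen by position and length alone, with no measured value. They number 41381 of the 163337 introns listed in each library (25.3%), in 10905 genes, and their median length was 1710 bases. The libraries come from 4 mouse models of triple-negative breast cancer, a breast tumor type without hormone receptors or HER2, grown after orthotopic transplant into female mice that were 4 to 5 weeks old. Animals received either H3B-8800 or vehicle each day before the tumors were taken, and RNA was made from the bulk tumor. PyMT-M tumors in C57BL/6 mice, labelled as responders, gave 4 vehicle and 4 H3B-8800 libraries. AT3 tumors in C57BL/6 mice, labelled as nonresponders, gave 3 vehicle and 2 H3B-8800 libraries. 2208L tumors in Balb/c mice, labelled as responders, gave 3 libraries of each kind. T11 tumors in Balb/c mice, labelled as nonresponders, gave 3 libraries of each label.

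H3B-8800 is an oral splicing modulator. Its target, SF3B, is the U2 snRNP subcomplex that grips the branch point adenosine of an intron. The spliceosome joins exons after U1 has marked the 5′ splice site and U2 the branch point, and an intron that escapes this step stays in the RNA. Most long mammalian introns are recognised through their flanking exons. Some introns of splicing factor genes hold poison exons or are kept back in the nucleus, and these lower the output of the gene. Retention is used here as the percent of reads overlapping an intron that lie inside it. The other reads are taken to span it as a spliced junction, though how reads were counted is not stated. Reads from an exon or another RNA inside an intron, and from unprocessed nuclear RNA, count as intronic too. The transplanted tumors hold host cells, so fewer tumor cells and less RNA per tumor cell cannot be told apart.

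Among the introns that fell, 6 of those named below lie whole inside an exon of an annotated transcript that keeps the intron (GENCODE M21, GRCm38), so that their own letters can be read. For 5 of them the first 20 and last 60 bases are given 5′ to 3′ because the starts hold the 5′ splice site, and the ends hold the pyrimidine tract and the region where U2 and SF3B bind. Capitals mark the first and last pairs of bases of the intron.
Atp11b intron 27, start: GTaagtggctacactatgtc
Atp11b intron 27, end: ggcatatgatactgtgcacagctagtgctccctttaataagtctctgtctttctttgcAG
Sf3b1 intron 4, start: GTaattctttcccacttttc
Sf3b1 intron 4, end: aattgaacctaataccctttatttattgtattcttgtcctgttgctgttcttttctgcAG
Fbxl20 intron 10, start: GTaaacgttgtttatttagc
Fbxl20 intron 10, end: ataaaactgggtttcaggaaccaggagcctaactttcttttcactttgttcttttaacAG
Srrm1 intron 3, start: GTatgacatgcagatggctc
Srrm1 intron 3, end: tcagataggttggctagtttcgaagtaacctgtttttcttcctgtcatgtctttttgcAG
Srsf5 intron 4, start: GTttgttgaaatacagtttt
Srsf5 intron 4, end: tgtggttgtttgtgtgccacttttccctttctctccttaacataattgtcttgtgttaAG

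The same ends are shown for the 4 introns with the largest mean rise among those that also lie inside an annotated exon. These 4 were chosen after their values were seen, as a contrast to the introns that fell.
Atad2 intron 15, start: GTaaatacttttttgagcat
Atad2 intron 15, end: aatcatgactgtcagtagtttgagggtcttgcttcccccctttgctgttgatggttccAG
E130309D02Rik intron 2, start: GTactgctctcgaaatagcg
E130309D02Rik intron 2, end: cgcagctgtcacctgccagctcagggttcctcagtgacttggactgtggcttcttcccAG
Fam32a intron 2, start: GTgaggcaggggcagaacag
Fam32a intron 2, end: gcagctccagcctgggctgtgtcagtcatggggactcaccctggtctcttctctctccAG
Sugp2 intron 5, start: GTaggtgtccacccctaccc
Sugp2 intron 5, end: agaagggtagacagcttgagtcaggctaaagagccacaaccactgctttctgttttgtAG

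The 5 introns that fell had a GC content of 34.7% (Atp11b), 32.9% (Sf3b1), 42.2% (Fbxl20), 35.7% (Srrm1) and 36.3% (Srsf5). The 4 that rose had 39.3% (Atad2), 48.7% (E130309D02Rik), 49.8% (Fam32a) and 52.0% (Sugp2), against a median of 43.1% over the 928 internal introns of this length that lie inside an annotated exon. Between 20 and 4 bases before the end, C and T made up 64.7% to 82.4% of the letters in those that fell and 64.7% to 88.2% in those that rose, with a median of 76.5% over the 928. The motif CTNAC, a simple form of the branch point consensus, was in the last 50 bases of Fbxl20 intron 10 and Fam32a intron 2 and of 25.2% of the 928, and it was on the other strand of 9.91%. These letters describe the few introns shown and were not tested.

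For introns outside annotated exons only the joined exons could be read. The spliced junctions of the 4 introns that rose most and of 3 within-gene pairs are given because they are the introns the results below turn on. Capitals mark the last 3 bases of the upstream exon and the first 3 of the downstream exon.
Amotl1 intron 11: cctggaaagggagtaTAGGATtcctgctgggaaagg
Pcsk7 intron 4: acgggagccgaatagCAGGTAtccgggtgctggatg
Kdm2a intron 16: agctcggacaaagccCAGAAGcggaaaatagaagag
Arnt intron 11: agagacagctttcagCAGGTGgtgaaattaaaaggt
Heatr6 intron 11: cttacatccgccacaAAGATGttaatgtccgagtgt
Heatr6 intron 17: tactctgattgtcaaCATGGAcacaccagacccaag
Rpia intron 4: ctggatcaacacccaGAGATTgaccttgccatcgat
Rpia intron 7: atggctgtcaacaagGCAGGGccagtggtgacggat
Cul4a intron 4: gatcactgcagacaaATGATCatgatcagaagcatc
Cul4a intron 11: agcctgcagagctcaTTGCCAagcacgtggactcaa
The upstream exon ended in AG in 55.9% of the 41309 introns of this length with exon sequence, and in 56.7% of those that rose in PyMT-M, AT3 and 2208L alike. The downstream exon began with G in 48.3% and 48.2%, respectively.

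Before the results, several facts of the series bear on them. Overlapping reads on these 41381 introns numbered 2104905 to 4763654 per library, of which 129213 to 1473091 lay inside. Retention in T11 ran against the treatment labels: it was higher in the libraries labelled vehicle, so these are called the libraries labelled vehicle or H3B-8800 throughout. Summed muscle or B cell markers exceeded 50 CPM (counts scaled to library size) in 6 libraries: vehicle 3 and H3B-8800 2 of T11, H3B-8800 1 and 2 of PyMT-M, vehicle 2 of AT3 and vehicle 1 of 2208L. Summed macrophage markers (6 of 6 listed) were 102 to 293 CPM with vehicle and 441 to 662 with H3B-8800 in PyMT-M. In 2208L they were 156 to 698 and 1204 to 1354 CPM. Under the T11 labels they were 439 to 714 CPM for vehicle and 743 to 838 for H3B-8800, while in AT3 the ranges overlapped (461 to 804 and 577 to 651 CPM). Their part in the results below was not tested. Summed markers of mammary epithelium (6 of 8 listed) were 2957 to 6935 CPM in PyMT-M and 2208L and 100 to 418 CPM in T11 and AT3. Cldn3 and Cldn4 were not among the listed genes. Epcam, an epithelial adhesion gene, was at 0 to 8.88 CPM in T11 and AT3 and at 797 to 2120 CPM in the other models.

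Pooled over all 41381 introns, retention was higher with H3B-8800 in PyMT-M. Its vehicle libraries stood at 15.9%, 8.70%, 13.9% and 17.1%, and its H3B-8800 libraries at 32.2%, 30.1%, 24.6% and 28.7%, with no overlap. The means were 13.9% ± 3.72 (SD, n = 4) and 28.9% ± 3.20 (SD, n = 4), a difference of 15.0 points (two-sided exact permutation p = 0.02857, the smallest 4 against 4 allow, and 0.07143 adjusted over 5 comparisons). In AT3 the vehicle libraries stood at 10.6%, 19.0% and 11.4% and the H3B-8800 libraries at 16.8% and 24.5%. These groups overlapped, and the difference of 7.004 points had an exact permutation p of 0.3, with 0.1 the smallest possible. In 2208L retention was 6.14%, 9.69% and 9.42% with vehicle and 16.01%, 13.9% and 14.2% with H3B-8800. The groups did not overlap, and the difference of 6.30 points had the smallest p this design can give (exact permutation, 0.1). Stratified over these 3 models, the mean difference was 9.43 points (exact permutation p = 0.0002143, adjusted 0.001071). Libraries labelled vehicle in T11 stood at 11.5%, 20.2% and 14.0%, and those labelled H3B-8800 at 8.86%, 10.4% and 12.5%, a difference of -4.61 points (exact permutation p = 0.2).

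**Figure D1:**
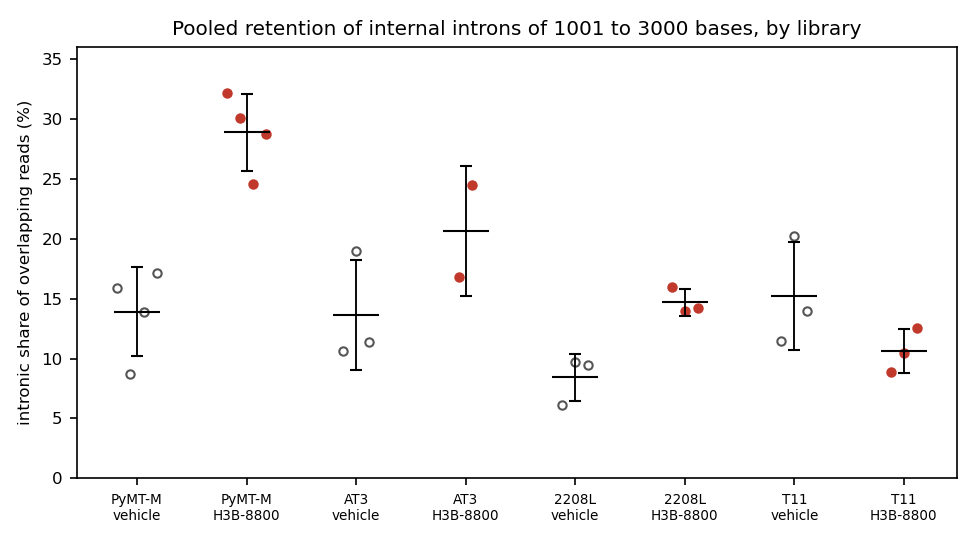
Pooled retention (percent of overlapping reads that lie inside the intron, y axis) in each of the 25 libraries by model and label; points are libraries (open, vehicle; filled, H3B-8800), bars the mean and SD. The H3B-8800 libraries of PyMT-M sit between 24.6% and 32.2%, above all of its vehicle libraries, and the libraries labelled vehicle in T11 average above those labelled H3B-8800.

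Among well covered introns, high retention was more frequent with H3B-8800. Of 9947 introns with at least 20 overlapping reads in every library (3748 genes), 5.79% were retained in 50% or more of reads in PyMT-M vehicle tumors and 22.8% in H3B-8800 tumors. In AT3 this share was 5.51% with vehicle and 12.2% with H3B-8800, and in 2208L 2.83% and 7.27%. In T11 it was 8.24% under the vehicle label and 3.80% under the H3B-8800 label. The median intron stood at 7.21% and 22.2% in PyMT-M, at 6.34% and 13.6% in AT3, and at 3.47% and 8.33% in 2208L. Even so, 19.6% of these introns stayed under 5% in PyMT-M tumors given H3B-8800. These shares are descriptions with no test of their own.

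Intron by intron, intronic reads per spliced read of the host gene were higher with H3B-8800 in most introns tested in PyMT-M. The test was edgeR's quasi-likelihood fit over 52042 introns and 25 libraries, with a Benjamini-Hochberg adjusted p under 0.05 as the call. Of the 41381 introns, 13431 (32.5%) passed the filter on low counts, in 5739 genes. In PyMT-M 8264 of them rose (61.5%, against 54.7% of all introns tested) and 322 fell (2.40%, against 5.68%). In AT3 2794 rose (20.8%, against 19.4%) and 67 fell (0.499%, against 0.317%). In 2208L 3211 rose (23.9%, against 21%) and 69 fell (0.514%, against 0.534%). For T11, with the libraries labelled H3B-8800 over those labelled vehicle, 104 rose (0.774%, against 0.761%) and 2586 fell (19.3%, against 19.6%). In AT3, 2208L and T11 these shares lie near the background, so that introns of this length were called about as often as introns in general. The median log2 change was 1.88 in PyMT-M, 1.16 in AT3, 1.27 in 2208L and -0.88 in T11.

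Single libraries decided much of the counts outside PyMT-M. Without the second H3B-8800 library of AT3, 457 introns were called in that model in place of 2861. Without vehicle 1 of 2208L, with muscle markers at 3787 CPM, 1458 were called in place of 3280. Without all 6 libraries with muscle or B cell markers the calls were 6427 in PyMT-M (8586 in the full set), 2486 in AT3, 836 in 2208L and 876 in T11 (2690 in the full set). Leaving out vehicle 2 of T11 gave 1371 calls. Of the introns tested, 9423 averaged at least 5 intronic reads in the vehicle libraries of PyMT-M, AT3 and 2208L. Among those, 54.4% rose in PyMT-M, 17.3% in AT3 and 22.6% in 2208L. The other 4008 passed the filter through their H3B-8800 or T11 libraries, which favours introns that rise. Shares and medians over all introns tested, by gene and by list too, include them. The median log2 change in PyMT-M was 1.435 over the 9423, beside 1.88 over all introns of this length tested. Shares of introns of every length were not computed under this limit.

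The calls overlapped between models. Of the introns that rose in AT3, 96.0% also rose in PyMT-M, and these made up 32.5% of those in PyMT-M. Of those that rose in 2208L, 92.3% also rose in PyMT-M (35.9% of the PyMT-M list). Of all introns of this length tested, 61.5% rose in PyMT-M. The AT3 and 2208L lists shared 1636 introns, 58.6% of the AT3 list and 51.0% of the 2208L list. In all 3 models 1624 introns of 1287 genes rose (12.1%, against 10.7% of all introns), and 10 fell (0.0745%, against 0.0423%). Of the 1624, 1617 had lower values in T11 under the H3B-8800 label. There edgeR called 1143 lower and 0 higher. Of all 13431 introns of this length tested, 22.9% had a value above 0 in T11 and 19.3% were called lower.

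The introns named first had the largest mean rise over PyMT-M, AT3 and 2208L. They were taken from introns that share no base with an annotated exon of either strand. They had at least 20 overlapping reads in each library of these 3 models and groups that did not overlap in any of them. Intron 11 of Amotl1 (chr9:14548807-14550391, mm10, minus strand), which codes for an angiomotin family scaffold of the Hippo pathway, rose most among them. Its retention was 7.89%, 3.08%, 7.55% and 13.0% in PyMT-M vehicle tumors and 97.0%, 93.2%, 95.3% and 90.4% with H3B-8800. In AT3 it was 0%, 7.14% and 0% with vehicle and 78.1% and 84.5% with H3B-8800. The 2208L libraries had 4.88%, 1.89% and 4.35% with vehicle and 83.3%, 71.8% and 77.9% with H3B-8800. Thus nearly all reads were spliced in every vehicle library and most were intronic in every H3B-8800 library. The log2 change was 7.15 ± 0.58 (SE) in PyMT-M, with an edgeR adjusted p of 4.78e-11. T11 libraries labelled vehicle had 80.4%, 90.2% and 90.5%, and those labelled H3B-8800 had 0%, 15.9% and 14.1%.

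Intron 4 of Pcsk7 (chr9:45911250-45912950, plus strand), from the gene of a proprotein convertase, was at 7.69%, 9.26%, 14.9% and 0% in PyMT-M vehicle tumors and at 84.4%, 88.3%, 87.0% and 86.6% with H3B-8800. Its log2 change was 5.90 ± 0.71 (SE) there, 5.17 ± 1.01 in AT3 and 6.65 ± 1.05 in 2208L, all past the threshold. Intron 16 of Kdm2a (chr19:4325047-4326808, minus strand), which codes for a histone H3 lysine 36 demethylase, was less tightly spliced in vehicle tumors. It stood at 18.4%, 9.84%, 27.7% and 36.8% with vehicle in PyMT-M and at 92.3%, 87.5%, 90.4% and 92.4% with H3B-8800. In AT3 it went from 20.3%, 20.8% and 0% to 72.7% and 85.5%. The spread between the vehicle libraries of PyMT-M was 11.7 points (SD, n = 4), against a rise of mean from 23.2% to 90.7%. Intron 11 of Arnt (chr3:95487324-95488354, plus strand), the gene of a partner of the aryl hydrocarbon receptor, went from a mean of 7.05% ± 6.00 (SD, n = 4) to 84.0% ± 2.70 in PyMT-M. In 2208L it went from 5.41% ± 5.69 (SD, n = 3) to 58.9% ± 6.14.

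Of the other introns named by this rule, Pkp4 intron 16 lies in the gene of an armadillo protein of cell junctions, and Rbm5 intron 14 in that of a splicing regulator. Gne intron 8 belongs to the enzyme that starts sialic acid synthesis, Nagpa intron 3 to an enzyme that uncovers lysosomal targeting tags, and Bcr intron 10 to a regulator of small GTPases. Upf1 intron 3 lies in the gene of the helicase of nonsense-mediated decay. In PyMT-M their means were 5.72% (Bcr) to 26.5% (Upf1) with vehicle and 87.2% (Gne) to 89.9% (Nagpa) with H3B-8800. Means with H3B-8800 ran from 48.3% (Bcr) to 73.7% (Rbm5) in AT3 and from 46.8% (Bcr) to 78.4% (Upf1) in 2208L. With H3B-8800 each of these 10 introns had its highest mean in PyMT-M, which is a description and not a test. In T11 all 10 were lower in the libraries labelled H3B-8800 and past the threshold; only for Gne did the groups overlap, at 13.3%, 76.6% and 84.8% against 13.0%, 12.5% and 13.8%.

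A small set moved the other way. The 10 introns that fell in all 3 models lie in Atp11b, Sf3b1, Fbxl20, Srrm1, Srsf5, Pxk, Rsrp1, Gmfg, Srsf11 and Top2a. An annotated exon overlaps 7 of them, in most cases one that holds the whole intron. Of these 10 genes, Sf3b1, Srrm1, Srsf5, Rsrp1 and Srsf11 code for splicing factors or related proteins rich in arginine and serine. Intron 4 of Sf3b1 (chr1:55014563-55016375, minus strand) lies in the gene of the drug's target protein, inside an exon of a transcript annotated as retaining it. Its reads were intronic in 83.5%, 62.2%, 79.9% and 75.1% of cases in PyMT-M vehicle tumors and in 11.7%, 20.3%, 11.8% and 11.3% with H3B-8800. In AT3 the values were 61.3%, 78.0% and 66.1% with vehicle and 38.1% and 34.96% with H3B-8800. In 2208L they were 50.7%, 68.0% and 68.5% against 30.2%, 25.4% and 19.9%. No groups overlapped, and the fall was deepest in PyMT-M, where it fell by 3.71 on the log2 scale (SE 0.43, edgeR adjusted p = 1.44e-08). The T11 libraries labelled vehicle had 40.4%, 23.9% and 14.1%, below the 52.5%, 70.9% and 69.8% of those labelled H3B-8800.

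Intron 3 of Srrm1 (chr4:135344670-135346734, minus strand), from the gene of a serine- and arginine-rich splicing coactivator, lies in an exon of such a transcript too. It went from 77.4%, 53.7%, 71.9% and 64.9% to 14.2%, 10.3%, 9.21% and 14.6% in PyMT-M. Intron 4 of Srsf5 (chr12:80947866-80949094, plus strand), an SR protein gene, was deeply covered, with a mean of 2507 overlapping reads. It fell from 90.2%, 79.7%, 89.9% and 85.9% to 56.1%, 62.0%, 60.6% and 60.8% in PyMT-M. In 2208L it had 78.7%, 85.4% and 85.7% with vehicle and 51.5%, 52.7% and 42.9% with H3B-8800. Rsrp1 intron 3 (chr4:134925433-134926734, plus strand), from another gene of an arginine- and serine-rich protein, fell from 96.4%, 95.1%, 97.3% and 96.3% to 67.6%, 71.5%, 65.5% and 67.2% in PyMT-M. It was named after its values were seen. In these 3 introns most overlapping reads were intronic in PyMT-M vehicle tumors, and fewer were with H3B-8800.

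Outside splicing factors, intron 27 of Atp11b (chr3:35837590-35839048, plus strand), a phospholipid flippase gene, fell from 70.0%, 41.9%, 62.1% and 57.4% to 0%, 4.35%, 0% and 9.09% in PyMT-M. Intron 10 of Fbxl20 (chr11:98095194-98096928, minus strand), an F-box gene, had means of 72.4% ± 9.62 (SD, n = 4) and 36.6% ± 4.31 there, and it too is kept in an annotated transcript. Pxk intron 12 (chr14:8146273-8148079, plus strand) holds no annotated exon and went from 47.8% ± 6.49 to 26.2% ± 9.06 in PyMT-M. In T11 all 10 introns were higher under the H3B-8800 label, and 8 passed the threshold. Pxk (edgeR adjusted p = 0.373) and Gmfg (0.241) did not.

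**Figure D2:**
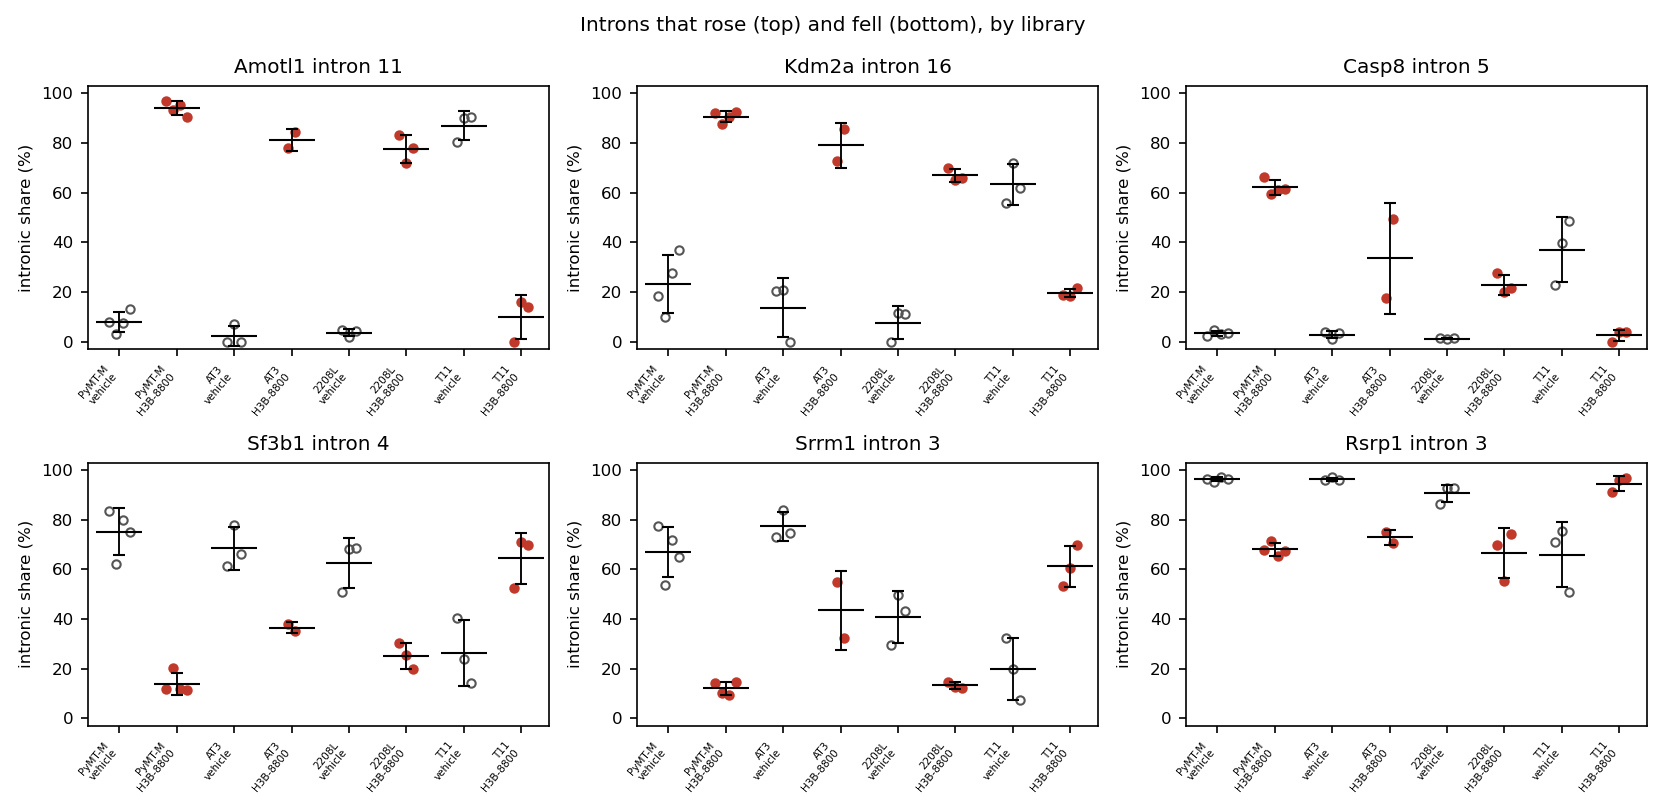
Retention (percent of overlapping reads inside the intron, y axis) in each library by model and label for 3 introns that rose (Amotl1, Kdm2a, Casp8) and 3 that fell (Sf3b1, Srrm1, Rsrp1) in PyMT-M, AT3 and 2208L; points are libraries, bars the mean and SD. Amotl1 intron 11 reaches 90.4% to 97.0% with H3B-8800 in PyMT-M, where Sf3b1 intron 4 drops to 11.3% to 20.3%, and T11 shows the opposite order in each panel.

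Introns of the same gene were not all called alike. In PyMT-M 61.5% of the introns tested rose and 88.1% had a value above 0, and whether the mix within genes departs from these shares was not tested. Of 1977 genes with at least 3 introns of this length tested, 497 had all of them called higher in PyMT-M, 126 had none and 1354 had some. In AT3 the counts were 23, 835 and 1119, and in 2208L 28, 756 and 1193. The median range of log2 changes within such a gene was 2.83 in PyMT-M. Of 568 genes with an intron that passed the naming rule for rises, 138 held another that changed by under 5 points on average. The average is over PyMT-M, AT3 and 2208L, so changes in opposite directions can cancel.

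In Heatr6, intron 11 (chr11:83769768-83772244, plus strand) went from 33.3%, 14.9%, 31.6% and 40% to 91.2%, 86.1%, 93.8% and 89.4% in PyMT-M. Its intron 17 (chr11:83777363-83778844) stood at 50%, 27.1%, 51.6% and 55.6% with vehicle and at 40.6%, 78.4%, 48.8% and 32.1% with H3B-8800, so that the groups overlapped. In Rpia, which codes for ribose 5-phosphate isomerase, intron 4 (chr6:70775174-70777351, minus strand) went from 34.2%, 15.7%, 18.2% and 32.0% to 94.8%, 89.2%, 94.3% and 91.9%. Intron 7 of that gene (chr6:70771094-70773429) was at 22.1%, 11.8%, 34.2% and 29.2% with vehicle and at 11.5%, 33.0%, 19.1% and 11.8% with H3B-8800. Its log2 change was -0.05 ± 0.62 (SE), while that of intron 4 was 4.73 ± 0.54. In Cul4a, a cullin of ubiquitin ligases, intron 4 (chr8:13121747-13122806, plus strand) went from 12% ± 4.90 (SD, n = 4) to 70.6% ± 5.37, and intron 11 (chr8:13133842-13135864) from 11.3% ± 6.13 to 17.1% ± 9.72. The pairs were picked for this contrast, so the difference within them carries no test.

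**Figure D3:**
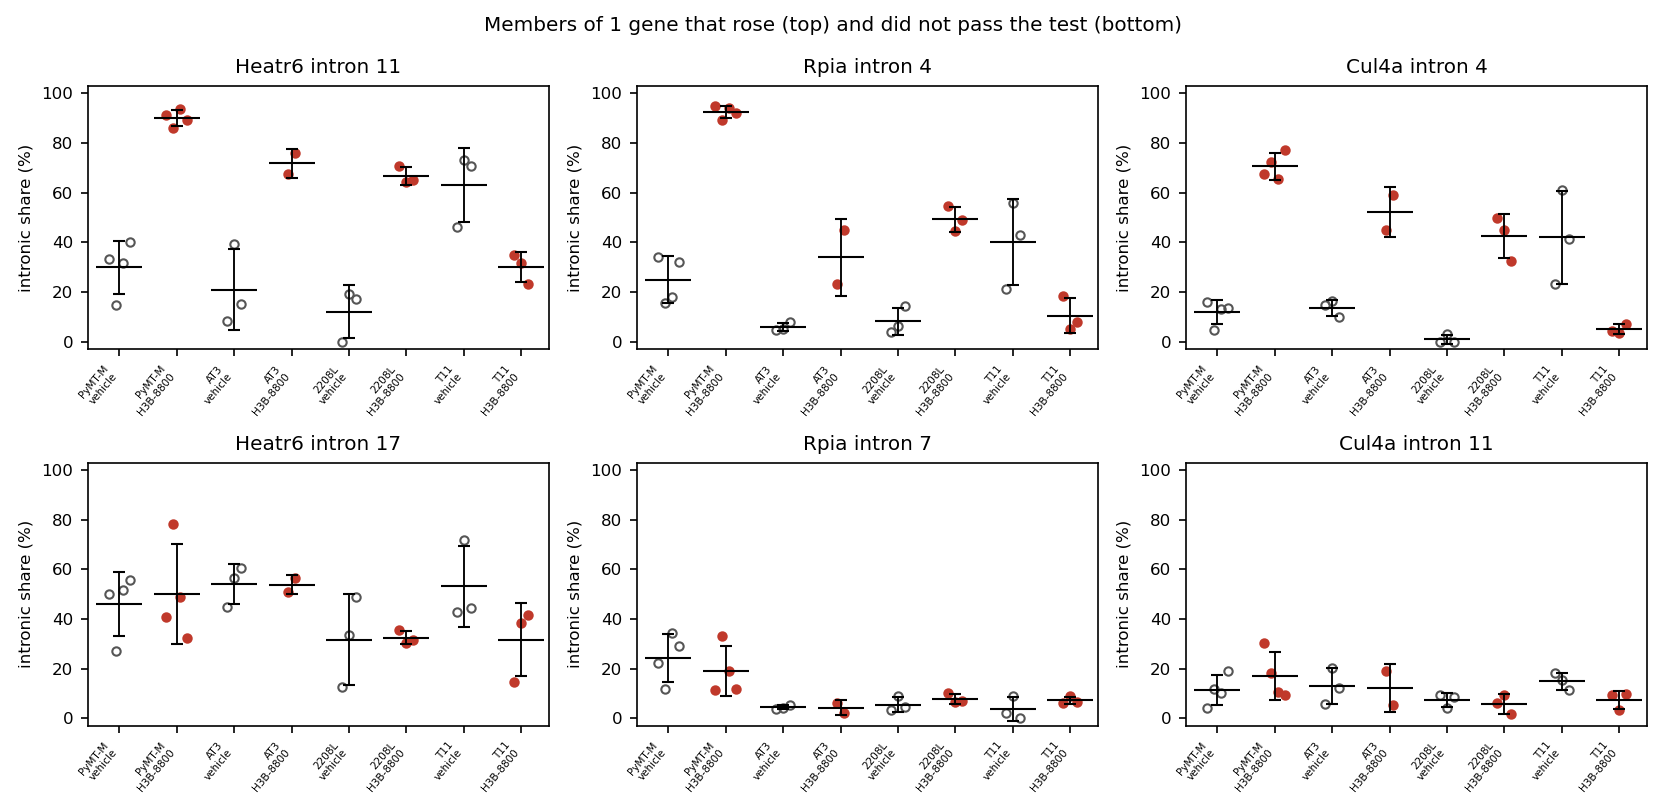
Retention (percent of overlapping reads inside the intron, y axis) by library for the introns of Heatr6, Rpia and Cul4a that rose (top) and for another intron of the same length class in the same gene (bottom); points are libraries, bars the mean and SD. Rpia intron 4 stands at 89.2% to 94.8% with H3B-8800 in PyMT-M while Rpia intron 7 stands at 11.5% to 33.0%.

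Some well covered introns stayed spliced in all groups. Of 842 introns with at least 200 overlapping reads in every library of PyMT-M, AT3 and 2208L, 80 in 67 genes had means under 2% in all 6 groups. Among those that no annotated exon overlaps, taken at 1 per gene, the most covered lies in Pkm, the gene of pyruvate kinase M (intron 5, chr9:59669100-59670466, plus strand). Its retention was 0.345%, 0.059%, 0.0822% and 0.523% in PyMT-M vehicle tumors and 0.449%, 0.187%, 0.514% and 0.736% with H3B-8800. The next were intron 4 of Itm2b, intron 6 of Anxa1 and intron 5 of Pdia3, with group means of 0.0754% to 1.75% over these 4 introns and 3 models. These were chosen after their values were seen. Low retention does not show that they did not change: the log2 change of Pkm intron 5 was 1.04 ± 0.65 (SE) in PyMT-M.

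Genes of the pathways listed for these tumors carried rises in every list, at shares on both sides of that of all 13431 introns tested (61.5% in PyMT-M). In the SF3B complex and its U2 partners, 26 of 40 introns rose in PyMT-M and 2 fell; 6 rose in AT3 and 8 in 2208L. Sf3b3 intron 8, from a core SF3B subunit gene, went from 7.81%, 2.08%, 3.90% and 14.0% to 69.6%, 66.9%, 62.2% and 56.6% in PyMT-M. Genes of SR proteins and hnRNPs had 17 of 46 higher and 5 lower in PyMT-M, with a median log2 change of 0.66 beside 1.88 over all introns tested. Within that list Srrm1 carried both directions, since its intron 6 rose from 8.80% ± 0.644 (SD, n = 4) to 68.5% ± 8.62 while its intron 3 fell. Tra2b intron 7, from a splicing activator gene, went from 6.38% ± 2.81 to 52.4% ± 9.14. Among splicing kinases and decay factors 17 of 32 rose and 4 fell in PyMT-M, and Clk3 intron 5, in a kinase gene for SR proteins, went from 21.9% ± 6.17 to 74.8% ± 2.08.

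In mitosis genes 53 of 71 introns rose in PyMT-M and 0 fell, with a median log2 change of 2.51; edgeR called 20 higher in AT3 and 15 in 2208L. Aurkb intron 6, of the Aurora B kinase, went from 41.9%, 32.8%, 51.5% and 21.7% to 96.4%, 97.7%, 91.5% and 89.1%. Anapc1 intron 19, of the largest subunit of the anaphase-promoting complex, went from a mean of 11.8% to 80.2%. DNA replication genes had 30 of 61 higher and 3 lower in PyMT-M, with Pola2 intron 4 (13.2% to 76.8%) and Mcm4 intron 7 (8.46% to 61.7%) named. DNA repair genes had 27 of 53 higher and 1 lower, with Ercc3 intron 7 (9.49% to 85.4%) and Ercc2 intron 5 (10.7% to 77.8%), both helicases of TFIIH. Chromatin regulators had 43 of 64 higher and 1 lower; 21 rose in AT3 and 20 in 2208L. Kmt2a intron 13, of a histone methyltransferase, went from 42.9%, 28.6%, 41.2% and 62.5% to 97.4%, 95.8%, 96.0% and 96.4%. Introns named from the lists had no read minimum, and the least covered library had 6 overlapping reads at Kmt2a intron 13 and at Ercc2 intron 5.

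Cell death genes had 15 of 26 higher in PyMT-M. Casp8 intron 5, of the initiator caspase of death receptors, was at 2.33%, 4.76%, 3.09% and 3.57% with vehicle and at 66.4%, 59.5%, 61.2% and 61.5% with H3B-8800. Its receptor-side partner Tnfrsf10b, the mouse TRAIL receptor gene, had intron 6 go from 30.03% ± 9.09 (SD, n = 4) to 89.9% ± 2.54. Interferon and MHC class I genes had 28 of 37 higher; in Ddx58, the gene of the RNA sensor RIG-I, intron 8 went from 36.4% to 94.0% and intron 9 from 22.2% to 74.2%. Proteasome genes had 33 of 45 higher, with Psmd14 intron 5 at 3.61% and 54.2% and Psmb3 intron 2 at 1.31% and 42.5%. Glycolysis and citrate cycle genes had 39 of 62 higher and 2 lower, with Idh2 intron 3 (3.13% to 40.1%) and Fh1 intron 6 (0.818% to 31.3%). Translation genes had 21 of 24 higher, with Eif4g1 intron 18 (1.11% to 19.3%) and Eif2s3x intron 7 (2.88% to 26.2%). Vehicle and H3B-8800 libraries of PyMT-M did not overlap at any of these introns. The lists describe, and no test set them against other genes.

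Junction reads, the spliced reads of an intron relative to those of the other introns of its gene, moved far less. In PyMT-M 51 of the 13431 introns rose (0.380%, against 0.515% of all introns) and 102 fell (0.759%, against 1.32%). The intronic reads of 89 of those 102 rose, as did those of 61.5% of all introns of this length tested. Introns of other lengths were not counted in both measures. In AT3 1 intron was called (0.00745%, against 0.00194%), in 2208L 0 (against 0.00194%) and in T11 3 (0.0223%, against 0.0368%). The 0 in 2208L is edgeR's, and DESeq2 called 1. Of the 13431 introns, 674 there had an unadjusted edgeR p under 0.05, about the share of 0.05 that chance alone would give. Without the 6 libraries with muscle or B cell markers 8 were called in PyMT-M in place of 153. Over the 1624 introns that rose in all 3 models the median log2 change of junction reads was -0.07 in PyMT-M, -0.06 in AT3 and -0.02 in 2208L.

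A loss of junction reads accompanied intron reads in a few deep introns, named after their values were seen. Eif4b intron 10 (chr15:102091495-102092985, plus strand), of a translation initiation factor, went from 9.30%, 3.35%, 6.63% and 5.91% to 75%, 70.6%, 72.7% and 71.4% in PyMT-M. Its junction reads fell by 0.44 on the log2 scale (edgeR adjusted p = 0.00182), far less than its intronic reads rose (4.89). Cul1 intron 16 and Nrbp1 intron 7 fell by 0.64 and 0.80 in junction reads while reaching 85.3% and 94.5%. Rsrp1 intron 3 was the reverse: its junction reads rose by 1.33 in PyMT-M (adjusted p = 5.54e-08) and by 1.06 in AT3 (adjusted p = 0.00546), and fell in T11 libraries labelled H3B-8800.

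Across length classes of internal introns the changes formed a gradient. Medians and shares called are over introns that passed the read filter. The filter counts H3B-8800 libraries too, which favours rises where vehicle libraries hold few intronic reads. The median log2 change in PyMT-M was 2.77 in internal introns of up to 120 bases, 2.47 in those up to 300, 2.27 up to 1000, 1.88 up to 3000, 1.14 up to 10000 and -0.72 over 10000, each class starting where the one before it ends. The share that rose was 80.3% in the shortest class and 12.01% in the longest. Pooled over all introns of each class, without that filter, the log2 ratio of intronic to spliced reads changed less in PyMT-M. From the shortest class to the longest it changed by 2.215, 1.829, 1.572, 1.37, 0.983 and -0.0739. In the longest class the median log2 change was 0.80 in AT3 and 0.30 in 2208L. Vehicle 4 of PyMT-M had 74.6% pooled retention in that class, and vehicle 1, 2 and 3 had 39.3%, 48.9% and 38.4%. The part of vehicle 4 in the PyMT-M values was not tested. In introns of over 1000 and up to 3000 bases the log2 ratio of intronic to spliced reads rose less than in those of over 300 and up to 1000. The difference of effects over PyMT-M, AT3 and 2208L was -0.192 (exact permutation p = 0.002571, adjusted 0.01286 over 10 comparisons). Relative to those of over 3000 and up to 10000 bases it rose more, by 0.288 (exact permutation p = 0.0004286, adjusted 0.004286). Single models gave -0.202 and 0.387 in PyMT-M, -0.235 and 0.156 in AT3, and -0.139 and 0.321 in 2208L, and in T11 the signs were opposite, at 0.224 and -0.182. These single-model values rest on few libraries: on leaving out 1, the difference from the longer class ran from 0.174 (without vehicle 1) to 0.424 in 2208L, from 0.063 (without H3B-8800 2) to 0.249 in AT3 and from -0.298 to -0.0859 (without vehicle 2) in T11. Without the 6 libraries with muscle or B cell markers the difference from the shorter class was -0.03 in PyMT-M (exact permutation p = 0.8667). The first difference over the 3 models was lost when introns with an annotated exon were left out (-0.104, exact permutation p = 0.1576).

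In PyMT-M the median change was similar on both sides of each limit of the class, which was not tested. Introns of the last 50 lengths up to 1000 bases had a median log2 change of 2.32 in PyMT-M (508 tested) and those of the next 50 lengths 2.27 (490 tested). Introns of the last 50 lengths up to 3000 bases had 1.67 (189 tested) and those of the next 50 lengths 1.63 (181 tested). A long intron offers more positions for a read to lie inside, so levels are also given per kilobase. With vehicle, PyMT-M held 9.32 intronic reads per kilobase for each 100 spliced reads, and with H3B-8800 23.2. The same density was 8.996 and 14.8 in AT3 and 5.18 and 9.67 in 2208L. For the next shorter class it was 10.5 and 31.3 in PyMT-M, and for the next longer class 7.83 and 14.6. Density effects differed from those of the shorter class by -4.03 and of the longer class by 3.82 over the 3 models (exact permutation p = 0.0004286 and 0.0002857).

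**Figure D4:**
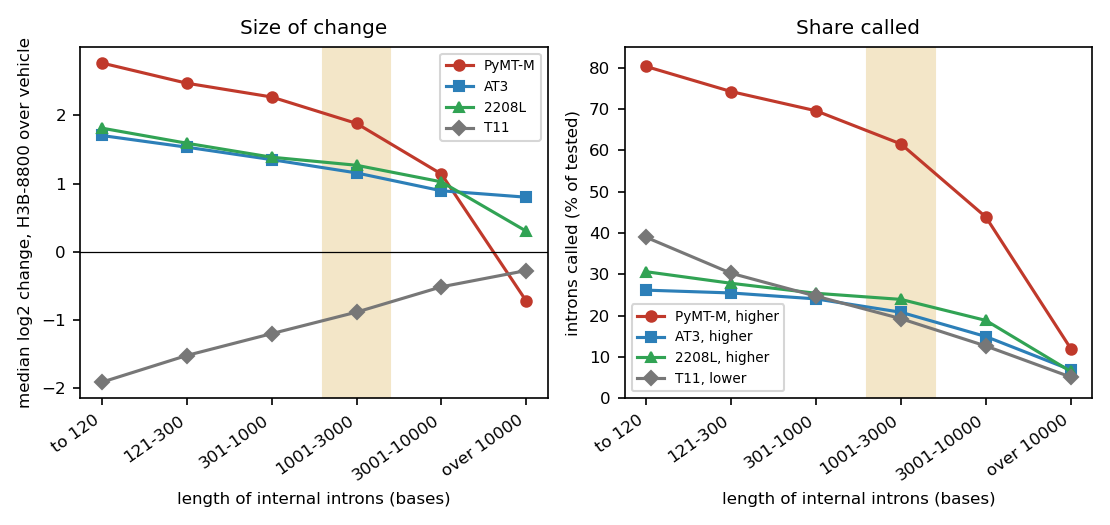
Median log2 change of intronic reads with H3B-8800 over vehicle (left, y axis) and share of tested introns called (right, y axis, percent) by length of internal introns (x axis, bases), 1 line per model with T11 as labelled; the shaded band marks over 1000 and up to 3000 bases. In PyMT-M the share called higher goes from 80.3% to 12.01%, with 61.5% in the band.

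Within the class, exon composition went with the size of the rise when reads were pooled. Introns were split into 4 groups of about equal size by the GC content of up to 100 bases of exon on each side. In the group with the lowest GC (up to 44.5%), pooled retention in PyMT-M went from 12.65% ± 4.07 (SD, n = 4) to 22.7% ± 4.01. In the group with the highest (54.2% or more) it went from 19.35% ± 4.80 to 40.3% ± 3.41. Over the 3 models the log2 effect of the lowest group minus that of the highest was -0.268 (exact permutation p = 0.0009286, adjusted 0.002786 over 3 features), with -0.47 in PyMT-M, -0.08 in AT3 and -0.26 in 2208L. With the median over introns in place of pooled reads it was -0.0815 (exact permutation p = 0.5407), and the call was lost. Length within the class (0.027, exact permutation p = 0.4737) and place in the gene (0.0697, exact permutation p = 0.4484) gave no difference past the threshold when pooled. By the median over introns, and among introns without an annotated exon, the shortest of 4 groups had the larger effect, by 0.385 and 0.275 (exact permutation p = 7.143e-05, the smallest possible, and 0.0001429). Retention with vehicle was higher toward the 3′ end of genes, at 11.05% in the first of 4 groups by position and 16.9% in the last in PyMT-M, which was not tested.

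**Figure D5:**
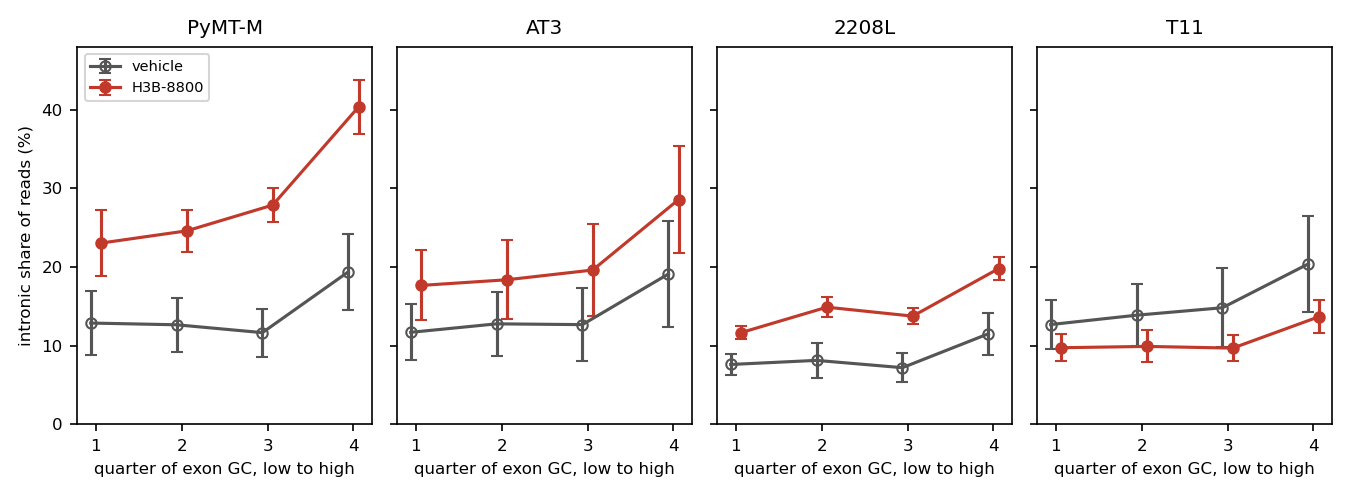
Pooled retention (percent, y axis) by GC content of the flanking exons (x axis, 4 groups, 1 lowest to 4 highest) in each model; points are group means over libraries and bars the SD, open for vehicle and filled for H3B-8800. In PyMT-M the H3B-8800 mean reaches 40.4% in group 4, and T11 shows the libraries labelled vehicle above those labelled H3B-8800. Groups here hold 10327 or 10328 introns each, so values differ slightly from the split at fixed GC limits.

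An annotated exon that overlaps the intron went with smaller changes. Such an exon shares any base with the intron, lies on either strand and can hold the whole intron. Of the introns tested, 8551 without one had a median log2 change of 2.13 in PyMT-M and 4880 with one had 1.53, with 64.5% and 56.4% rising. In AT3 the medians were 1.32 and 0.89, and in 2208L 1.42 and 1.03. The share called differed with depth. In the fewest-read of 4 groups of introns by mean overlapping reads (15.1 to 50.5 per library) it was 55.7% in PyMT-M, 15.7% in AT3 and 16.8% in 2208L. In the most-read group it was 62.7%, 22.7% and 28.4%. The median SE of the log2 change in PyMT-M was 0.78 in the first of these groups and 0.53 in the last.

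The models differed in few introns of this length once the difference itself was tested with edgeR. Between PyMT-M and 2208L 15 effects differed (0.112%, against 0.115% of all introns), between PyMT-M and AT3 0 (against 0.00192%), and between 2208L and AT3 1 (0.00745%, against 0.00192%). For PyMT-M against AT3, 1247 introns had an unadjusted p under 0.05. The median of the difference was 0.51 (log2) between PyMT-M and 2208L and 0.67 between PyMT-M and AT3, and a missed threshold does not show that the effects were alike. Tbp intron 3 (chr17:15504648-15507342, plus strand), of the TATA-binding protein gene, was at 5.38%, 4.49%, 2.86% and 0% with vehicle and at 74.1%, 41.9%, 46.2% and 45.6% with H3B-8800 in PyMT-M. In 2208L it was at 18.8%, 6.56% and 3.704% against 13.8%, 14.6% and 4.21%, so that these groups overlapped. The difference of effects was 5.43 ± 1.04 (SE, adjusted p = 0.0177). Prkca intron 10, of protein kinase C alpha (8 overlapping reads in its least covered library), reached 69.6% ± 2.35 in PyMT-M and 17.9% ± 9.91 in 2208L from 4.12% and 20.5%. Sap30bp intron 9 stood at 12.9% and 52.1% in PyMT-M and at 15.1% and 17.8% in 2208L. These 3 were named after their values were seen, and an annotated exon overlaps the intron of Tbp but not those of Prkca and Sap30bp. Against the mean of the 3 other models, 7540 effects differed in T11 (56.1%, against 52.1%), 7203 of them lower.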

How the data were processed

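RNA from 25 bulk tumors was sequenced as strand-specific libraries with polyA selection, per the labels' protocols. The submitters' processing notes name HISAT2 2.0.4 and, of genome builds, mm10 and hg38. How reads were counted, and on which annotation, is not stated in those notes. The deposited files have no header line; that the authors' columns hold, per intron, a count of intronic reads, a count of overlapping reads and an RPKM was read from the values. The RPKM was used only to recover library totals. Intron coordinates follow mm10, and 99.9% of members are introns of GENCODE M21. Members had to lie in genes of at least 1 CPM in 2 libraries, with means of 5 intronic and 10 spliced reads. edgeR 4.0.16 (robust quasi-likelihood, 8 group means) used the log of gene spliced reads plus 0.5 as offset, with Benjamini-Hochberg adjustment over 52042 introns (51624 for junction reads). The fit was tested on simulated data. Pooled values were compared by two-sided exact permutation of libraries, within models where several are joined. DESeq2, limma, TMM, other filters and left-out libraries were alternatives.

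Members, lists and alternatives were chosen with earlier results of these data known. Named are up to 10 introns that rose and 6 that fell in all of the models but T11 (largest mean change, 1 per gene, at least 20 overlapping reads, no overlap of groups, and for those that rose no annotated exon inside), up to 4 pairs within a gene and up to 2 introns for each of 12 gene lists, with no read minimum; a rule for introns that kept their level found 0. The results of 1 gene that these rules pick are not reported here. The labels call the tumors replicates of a model; p-values measure the spread between these tumors. Intron GC content could not be compared over members without a genome sequence, since only 928 had letters in the transcripts. AT3 with H3B-8800 holds 2 libraries here.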

Additional observations from a re-analysis of the deposited data

Results flagged for a closer look

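In groups of 4 libraries, the highest or lowest library stood far from the others for 7 of 122 group values checked; chance sets apart about 1 in 20. The gap to the nearest library, as a share of the range, was 0.891 for Eif2s3x intron 7 and 0.881 for E130309D02Rik intron 2 in PyMT-M vehicle tumors. With H3B-8800 in PyMT-M it was 0.946 for Sf3b1 intron 4, 0.880 for Srrm1 intron 6, 0.887 for Ddx58 intron 8, 0.876 for Pdia3 intron 5 and 0.865 for Tbp intron 3. The drug effect differed between models in 15 introns for PyMT-M minus 2208L, in 1 for 2208L minus AT3 (Thbs1 intron 7) and in 7540 for T11 minus the mean of the other models, by the edgeR test of the difference.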

How the results depend on the processing

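edgeR calls with DESeq2, limma, TMM, the intron's own offset or no minimum of intronic reads stayed within 1.5 times in every model. A minimum of 20 reads gave 4400 calls in PyMT-M and 4327 for the mean of 3 models (6631 to 8950 on leaving out 1 library). Introns without an annotated exon, being fewer, gave 1755 in T11, 5684 in PyMT-M, 2134 in 2208L and 5701 for the mean. AT3 libraries alone gave 1890. Leaving out 1 library gave 1371 to 3297 in T11, 7513 to 8907 in PyMT-M, 457 to 3382 in AT3 and 1458 to 2740 in 2208L; junction calls ran from 0 to 3, 69 to 175, 0 to 1 and 0 to 1. Without the 6 libraries, chosen after seeing the data, calls were 876 in T11 and 836 in 2208L, and junction calls 8 in PyMT-M and 0 in T11 and AT3; DESeq2 gave 5 junction calls in T11 and 1 in 2208L.

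Pooled retention in PyMT-M differed by 12.7 points without the 6 libraries (exact permutation p = 0.06667), and on leaving out 1 library by 13.2 to 16.4 (T11 -6.49 to -2.11, AT3 3.17 to 10.8, 2208L 5.16 to 6.93). Against the next shorter class, the median over introns gave -0.427 in PyMT-M, -0.294 in AT3 and -0.0823 in 2208L; genes holding both classes gave -0.347 in PyMT-M and -0.271 in 2208L; introns without exons gave -0.0108 in 2208L and -0.104 over 3 models. Leaving out 1 library gave -0.33 to -0.137 in PyMT-M. Against the next longer class, PyMT-M gave 0.359 without the 6 libraries and 0.3 to 0.45 without 1; medians gave 0.293 in AT3 and -0.398 in T11. The length groups gave 0.275 and 0.385 and the GC groups -0.0815, as above; causes were not tested.

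Replicate numbers were not taken to pair the samples. Correlations of same-numbered deviations ran from -0.0988 to 0.111 for retention and from -0.406 to 0.483 for gene levels. In no model were all over 0.1, though for gene levels all in PyMT-M were above 0 (0.0605 to 0.483). With so few libraries these values cannot exclude a pairing. With the number as a replicate block, there were 991 calls in AT3, 81 junction calls in PyMT-M and 0 in AT3, and the PyMT-M differences of 15.0 points and 0.387 had exact p-values of 0.125. Of 2727 alternative values for 43 named introns, 128 lost the threshold (68 in AT3, 49 in T11), 2 gained it and 0 reversed. In the least covered of 4 groups of introns, median SEs were 0.78 in PyMT-M (8 libraries), 1.02 in AT3 (5) and 1.03 in 2208L (6).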

Other observations

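Of these introns, 8 lost intronic reads and gained junction reads in PyMT-M, past edgeR's threshold in both. They are Rsrp1 intron 3, Srsf5 intron 4, Ccnl1 intron 5, Ccnl2 intron 5, Tnrc6c introns 10 and 11, Trmt13 intron 4 and Tnk1 intron 8. An annotated exon overlaps each of them but Tnrc6c intron 10, and 36.3% of all introns of this length tested. Reads of such an exon can count as intronic. Introns of other lengths were not counted in this way, so the 8 cannot be set against introns in general. Ccnl1 intron 5, in the gene of a cyclin tied to splicing, went from a mean of 86.9% to 57.9%, with junction reads higher by 0.94 (log2, edgeR adjusted p = 6.45e-05). Ccnl2 intron 5 went from 93.0% to 80.7%, with junction reads higher by 0.80 (edgeR adjusted p = 0.00152), while intron 3 of the same gene went from 6.68% to 59.1%. In Tnrc6c, of a protein of microRNA silencing, introns 10 and 11 went from means of 65.4% and 64.7% to 7.62% and 8.42%. All introns here were named after their values were seen.

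Irf3 intron 2, in the gene of a transcription factor of the interferon response, rose in both measures in PyMT-M: intronic reads by 3.35 and junction reads by 1.21 (log2, edgeR adjusted p = 0.00238 and 1.05e-05). Cnot3 intron 7, in a deadenylase subunit gene, went from 18.2% to 97.3% with junction reads lower by 1.70.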
